A study of Mus musculus with 10 samples.

Results

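Renin-angiotensin and endothelin signaling was followed through 9 genes in the RNA of whole mouse hearts. They were listed by name: Agt, Ace, Agtr1a, Agtrap and Nr3c2 of the angiotensin and aldosterone axis, and Edn1, Ece1, Ednra and Ednrb of the endothelin axis. All 9 were found among the 56748 gene identifiers of the count tables, and all 9 were among the 15454 genes with enough counts to be tested. The hearts came from 10 wild-type C57BL/6 mice, bought at an age of 8 weeks and randomly assigned. In the training group, 5 mice had run on a treadmill at 15 m/min for 120 min per day, 5 days per week, for 8 weeks after 1 week of acclimatization. In the sedentary group, 5 mice served as controls without training. Each heart gave 1 library and included both atria with their appendages and the ventricles, and how these 5 mice per group were taken from the larger cohort is not given in the sources used here. The libraries held between 29461697 and 39431030 counts on genes, fewer in the training hearts (median 34231778) than in the sedentary hearts (median 37754308). Cardiomyocyte markers summed to between 44951 and 52170 CPM, and hepatocyte markers to at most 0.613 CPM. CPM are the counts of a gene scaled to the size of its library, after that size was corrected by edgeR's TMM factors.

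Angiotensinogen, the product of Agt, is cut by renin to angiotensin I, which the converting enzyme ACE turns into angiotensin II, and that peptide acts through the type 1 receptor on vessels, cardiomyocytes and fibroblasts. Aldosterone, released downstream of angiotensin II, acts through the mineralocorticoid receptor encoded by Nr3c2. Endothelin-1 is released mainly by endothelial cells after its precursor is cut by the converting enzyme ECE1. It constricts vessels through the receptor encoded by Ednra, while the receptor encoded by Ednrb on endothelium releases nitric oxide and clears the peptide. Both axes are known for their part in cardiac hypertrophy and fibrosis under pressure load.

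The comparison of training with sedentary hearts asked which of these genes differ after 8 weeks of forced endurance training. None of the 9 passed an FDR below 0.1 when edgeR's quasi-likelihood p-values were adjusted over all tested genes by the method of Benjamini and Hochberg, against 7.01% of all tested genes (1084 of 15454, of which 425 were higher and 659 lower). At an unadjusted p below 0.05, 2 of the 9 passed, Agt and Ednra, both lower in training hearts, against 20.0% of all tested genes. DESeq2 called 1 of the 9, Agt, among 1407 genes called. It gave a p-value for 30019 genes but applies its own filter on low counts before adjustment. The share of genes called is therefore not comparable with the 7.01%. None of the 9 had groups without overlap, against 5.06% of all tested genes. The median log2 fold change of the 9 was −0.08 and that of all tested genes 0.00026. Their median absolute log2 fold change was 0.11, beside 0.092 for all tested genes and 0.26 for the called genes, of which the smallest was 0.11. Direction was mixed, with 4 above 0 and 5 below.

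The DNA before the start sites of Agt, Ednra and Ednrb is shown because Agt and Ednra had the lowest p of the 9 and because both receptors answer the same ligand. The sequences are the 250 bases before each RefSeq start (table build GRCm38.p6), which matched GRCm39 exactly once each, at chr8:125296446-125296695 for Agt, chr8:78451082-78451331 for Ednra and chr14:104081138-104081387 for Ednrb, all on the minus strand. They are written 5′ to 3′ toward the start. Capitals mark matches on either strand to TATAAA (the TATA box) or AGAACA (the core bound by the glucocorticoid and mineralocorticoid receptors, TGTTCT on the other strand); these motifs do not overlap each other here.
Agt: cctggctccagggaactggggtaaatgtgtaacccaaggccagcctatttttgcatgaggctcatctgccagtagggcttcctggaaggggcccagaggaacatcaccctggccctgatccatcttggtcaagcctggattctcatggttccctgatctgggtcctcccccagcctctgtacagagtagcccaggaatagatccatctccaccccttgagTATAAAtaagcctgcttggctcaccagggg
Ednra: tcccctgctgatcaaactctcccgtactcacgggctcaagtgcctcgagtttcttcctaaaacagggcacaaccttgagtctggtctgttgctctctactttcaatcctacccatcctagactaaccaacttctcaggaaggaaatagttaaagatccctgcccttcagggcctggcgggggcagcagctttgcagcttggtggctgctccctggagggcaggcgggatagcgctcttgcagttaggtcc
Ednrb: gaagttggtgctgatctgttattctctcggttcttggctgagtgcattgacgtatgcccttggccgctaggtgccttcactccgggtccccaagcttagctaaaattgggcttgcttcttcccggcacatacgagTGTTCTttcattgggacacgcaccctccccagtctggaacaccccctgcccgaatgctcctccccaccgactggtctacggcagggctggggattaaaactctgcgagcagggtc

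The Agt window held TATAAA 30 bases before the start, and Ednrb held 1 AGAACA 115 bases before it, while neither letter string was found in the Ednra window. Among all 32851 promoter windows of this length, 12.4% held TATAAA and 16.1% held AGAACA. RefSeq windows were at hand for 8 of the 9 genes, 12 windows in all, Agtr1a being the one without. Ace was the other of the 9 with TATAAA, 31 bases before 1 of its starts. Unlike in Agt, that match was on the other strand (written TTTATA toward the start). Also, 1 of the windows of Ece1 held AGAACA (written TGTTCT, as in Ednrb), 104 bases before the start. The E-box CACGTG stood in windows of Agtrap and Ece1, against 6.02% of all windows. GC content was 55.6% for Agt, 54.8% for Ednra and 56.8% for Ednrb. These are letter matches and no measure of binding.

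Levels were compared between genes per transcript length, in the TPM values deposited by the authors, which scale counts to transcript length and to the library. Ece1 was the highest at 36.2 TPM (mean of 10 hearts) and exceeded 87.1% of the tested genes. Ace followed at 24.4 TPM and was below Ece1 in 10 of 10 hearts. The receptors Ednra and Agtr1a came next at 16.6 and 16.4 TPM and could not be ranked, since Ednra was above Agtr1a in 5 of 10 hearts. Agtrap had 12.6 TPM and was below Agtr1a in 9 of 10 hearts. Ednrb had 8.13 TPM, lower than Agtrap in every heart and without overlap. Agt had 6.27 TPM and was below Ednrb in 9 of 10 hearts. The lowest were Nr3c2 at 3.48 TPM and Edn1 at 2.48 TPM, the latter above only 33.8% of the tested genes and below Nr3c2 in 10 of 10 hearts. Within both axes the converting enzyme stood highest and the precursor of the peptide lower, on the TPM scale.

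**Figure D1:**
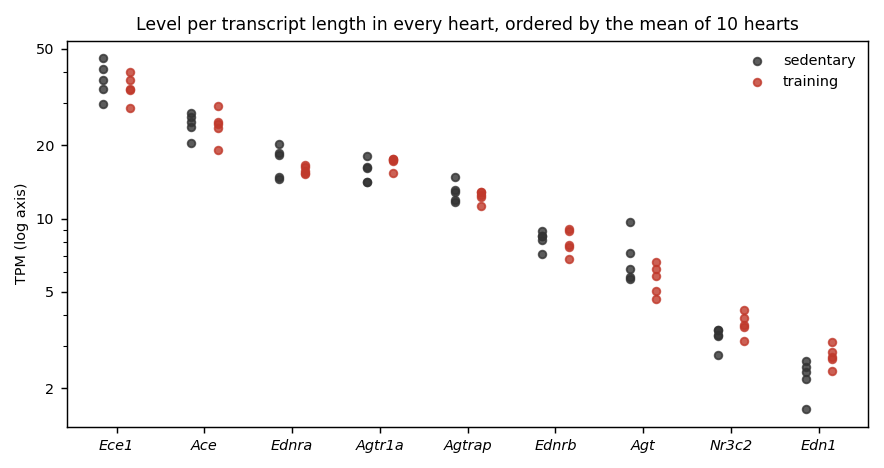
TPM of the 9 genes in every heart on a log axis, ordered by the mean of 10 hearts; black points are the 5 sedentary and red points the 5 training hearts. Ece1 lies highest (mean 36.2 TPM) and Edn1 lowest (mean 2.48 TPM), and the points of Ednra and Agtr1a overlap.

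Agt (ENSMUSG00000031980, GRCm39 chromosome 8, 125279301 to 125296716, minus strand) is the sole precursor of the angiotensin peptides. In the training hearts its level was 9.03, 7.85, 10.7, 9.77 and 9.88 CPM (hearts 1 to 5), and in the sedentary hearts 16.2, 10.4, 12.5, 11.4 and 10.4 CPM. Of the 5 training hearts, 4 lay below every sedentary heart, and training heart 3 overlapped with sedentary hearts 2 and 5. The means were 9.44 ± 1.06 CPM (SD, n = 5) and 12.2 ± 2.40 CPM (SD, n = 5). The log2 fold change was −0.37 (SE 0.120, adjusted p = 0.108 by edgeR's quasi-likelihood test), or −22.6% with a 95% interval from −35.2% to −7.51%. Agt missed the threshold narrowly, and its side of the threshold depended on the processing. Over 19 alternatives its log2 fold change lay between −0.65 and −0.24 and its adjusted p between 0.0247 and 0.194, with 5 below 0.1. DESeq2 gave an adjusted p of 0.0506. Without sedentary heart 1, the highest of all, the log2 fold change was −0.24 (adjusted p = 0.136 by edgeR). In bulk RNA, fewer cells of a type and less RNA per cell cannot be told apart.

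Reads from other genes or organs were checked beside Agt. The gene Cog2 covers 29.7% of its exon bases on the opposite strand and was at 22.4 CPM, with a log2 fold change of 0.027 (adjusted p = 0.802 by edgeR). Counts were strand-specific, and only 0.233% of the counts at Agt lay on the other strand. Liver is the main source of circulating angiotensinogen, and Alb, which encodes albumin, had 3 counts in all 10 libraries together. The other hepatocyte markers had 2 (Serpina1a), 15 (Apoa1) and 95 counts (Ttr). A part of liver RNA in the Agt level was not tested. Agt was measured at 5.66 ± 0.801 TPM in training and 6.88 ± 1.67 TPM in sedentary hearts (SD, n = 5 each).

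Ace (ENSMUSG00000020681, chromosome 11, 105858469 to 105880790) encodes the enzyme that makes angiotensin II and breaks down bradykinin. It was at 82.6, 97.8, 112, 92.9 and 96.2 CPM in the training hearts and at 108, 103, 109, 90.6 and 110 CPM in the sedentary hearts. The groups overlapped fully, the highest of all being training heart 3. The difference was −7.53% (95% interval −17.0% to 3.09%, adjusted p = 0.424 by edgeR).

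Agtr1a (ENSMUSG00000049115, chromosome 13, 30518942 to 30566850) encodes the main angiotensin II receptor of the mouse heart, which couples to Gq. Training hearts had 34.5, 31.8, 27.7, 32.1 and 32.6 CPM and sedentary hearts 26.2, 29.1, 29.2, 31.1 and 35.7 CPM. The range of the sedentary hearts enclosed that of the training hearts. The difference was 4.84% (95% interval −6.55% to 17.6%, adjusted p = 0.676 by edgeR). Agtrap (ENSMUSG00000029007, chromosome 4, 148160185 to 148172538) encodes a protein that binds this receptor and promotes its internalization. It was at 44.9, 44.7, 40.7, 41.7 and 42.9 CPM in training and at 49.5, 47.6, 44.1, 42.5 and 46.0 CPM in sedentary hearts. All 5 training hearts lay below the sedentary mean, yet the groups overlapped, and the difference of −6.48% had a 95% interval from −13.0% to 0.562% (adjusted p = 0.289 by edgeR).

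Nr3c2 (ENSMUSG00000031618, chromosome 8, 77625576 to 77971863) was at 17.8, 18.5, 20.5, 18.2 and 20.0 CPM in training hearts and at 16.7, 15.7, 17.6, 18.3 and 19.9 CPM in sedentary hearts. All 5 training hearts lay above the sedentary mean, and 2 of them above every sedentary heart. The difference was 7.73% (95% interval −2.51% to 19.0%, adjusted p = 0.406 by edgeR).

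Edn1 (ENSMUSG00000021367, chromosome 13, 42446301 to 42461466) encodes the precursor of endothelin-1. It was at 5.94, 5.18, 4.47, 6.26 and 4.98 CPM in training and at 5.27, 5.08, 4.29, 3.53 and 5.12 CPM in sedentary hearts. Training hearts 1 and 4 were above every sedentary heart, and the others lay within the sedentary range. The log2 fold change was 0.20 (SE 0.123, adjusted p = 0.394 by edgeR), or 15.0% with a 95% interval from −4.27% to 38.3%, the widest of the 9 in log2 units. Ece1 (ENSMUSG00000057530, chromosome 4, 137589530 to 137692542), whose product makes the active peptide, was at 123, 135, 148, 136 and 136 CPM in training and at 140, 122, 145, 135 and 131 CPM in sedentary hearts. The groups coincided, with a difference of 0.654% and the narrow 95% interval from −7.26% to 9.24% (adjusted p = 0.947 by edgeR). The ratio of Ece1 to Edn1 in TPM was 12.9 ± 2.53 in training and 17.2 ± 4.41 in sedentary hearts (SD, n = 5 each), with overlap. Both genes enter this ratio, since on the TPM scale the mean of Ece1 was lower in training, unlike in CPM. Ece1 had 34.7 ± 4.33 TPM in training and 37.6 ± 6.26 TPM in sedentary hearts. Edn1 had 2.72 ± 0.274 and 2.24 ± 0.369 TPM. Endothelium is the main source of endothelin-1. Of 8 endothelium markers, Tie1 and Flt1 were called lower (log2 fold change −0.16 and −0.19) and none higher, while 3 of the 8 lay above 0. These markers summed to between 1123 and 1271 CPM in training and between 1245 and 1312 CPM in sedentary hearts. The 4 markers of endocardium and vein (Npr3, Vwf, Plvap and Nr2f2) all lay above 0, with a median log2 fold change of 0.25 and none called. Their sums were 264 to 329 CPM in training and 185 to 279 CPM in sedentary hearts. The part of these cells in the endothelin genes was not tested.

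Ednra (ENSMUSG00000031616, chromosome 8, 78386590 to 78451552, minus strand) was at 54.4, 50.3, 50.6, 54.5 and 53.3 CPM in the training hearts and at 60.3, 52.4, 69.1, 68.1 and 53.9 CPM in the sedentary hearts. The training hearts lay close together, whereas 3 sedentary hearts were higher than all of them and the other 2 lay within their range. The means were 52.6 ± 2.03 CPM and 60.8 ± 7.79 CPM (SD, n = 5 each). The log2 fold change was −0.21 (SE 0.0735, adjusted p = 0.139 by edgeR's quasi-likelihood test), or −13.4% with a 95% interval from −22.4% to −3.41%. Ednra was called under 3 of 19 alternatives, with an adjusted p of 0.0818 without sedentary heart 2, 0.0957 without sedentary heart 5 and 0.0850 with all 10 hearts but no filter on low counts in the same edgeR test. Without sedentary heart 3 it was 0.300.

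Ednrb (ENSMUSG00000022122, chromosome 14, 104052053 to 104081900, minus strand) was at 26.3, 28.3, 31.2, 27.6 and 31.2 CPM in training and at 28.8, 27.5, 32.6, 32.5 and 31.9 CPM in sedentary hearts. The groups overlapped, and the difference of −5.67% had a 95% interval from −14.3% to 3.78% (adjusted p = 0.508 by edgeR). Transcripts of Ednra outnumbered those of Ednrb in every heart. Their ratio in TPM was 2.00 ± 0.208 in training and 2.10 ± 0.222 in sedentary hearts (SD, n = 5 each), with nearly identical ranges (1.75 to 2.27 and 1.75 to 2.29).

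**Figure D2:**
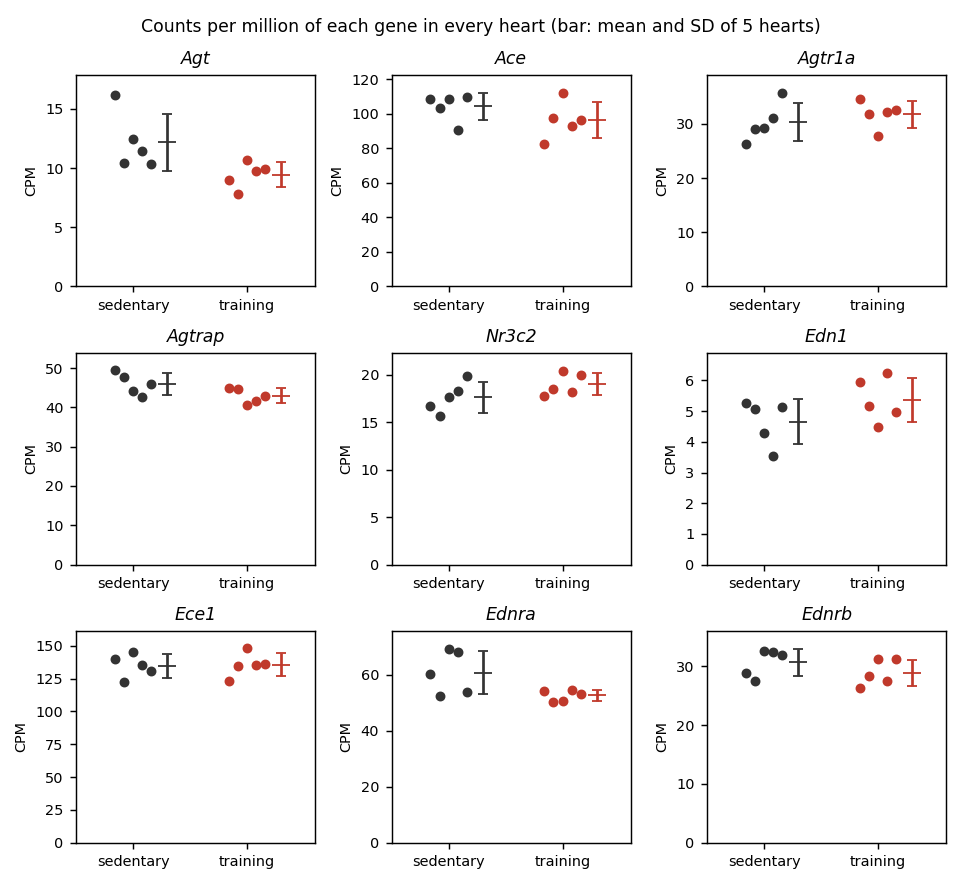
CPM of each of the 9 genes in every heart (points; hearts 1 to 5 from left to right) with mean and SD of 5 hearts beside them, sedentary in black and training in red, on axes that start at 0. For Agt, 4 training hearts lie below all sedentary hearts, and in all 9 panels the groups overlap.

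Atrium markers differed between these whole hearts. The 6 atrium markers (Nppa, Myl7, Myl4, Sln, Bmp10 and Dkk3) were all higher on average in training hearts, with a median log2 fold change of 0.62, and 2 of the 6 (Sln and Dkk3) were called. They summed to between 5053 and 7617 CPM in training and between 2789 and 6837 CPM in sedentary hearts. A score of these markers, the mean of their centered log2 CPM, was −1.04 in sedentary heart 2 and −0.893 in sedentary heart 5 and lay between −0.199 and 0.708 in the other 8. These were the 2 sedentary hearts with the lowest Agt and the lowest Ednra. With the score as a covariate, Agt had a log2 fold change of −0.65 (SE 0.0985, adjusted p = 0.0247 by edgeR) and was 1 of only 94 genes called. Ednra in that fit had −0.34 (SE 0.0809, adjusted p = 0.116 by edgeR). The other 7 genes were not called in that fit, and Ece1 changed sign to −0.085. The score ranged from 0.06 to 0.708 in training and from −1.04 to 0.36 in sedentary hearts. Score and group therefore cannot be fully told apart in that fit. The part of atrium tissue in the levels of Agt and Ednra was not tested.

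**Figure D3:**
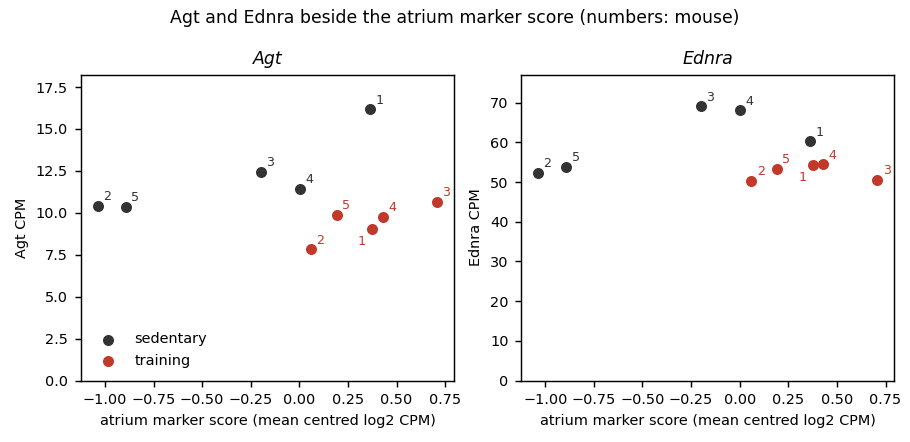
CPM of Agt (left) and Ednra (right) against the atrium marker score (mean of the centered log2 CPM of 6 markers) in each heart, numbered by mouse, sedentary in black and training in red. Sedentary hearts 2 and 5 have the lowest scores (−1.04 and −0.893) and the lowest sedentary levels in both panels, and among hearts with higher scores the sedentary ones lie above the training ones.

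Further genes of both axes were taken from hand-written lists. Of 83 genes 67 could be tested, and 13 were called, 5 higher and 8 lower in training hearts; among all tested genes 2.75% were called higher and 4.26% lower. Their median log2 fold change was 0.0014.

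Among the angiotensin genes, 2 of 14 tested were called, against 7.01% of all tested genes. Ctsd, which encodes the lysosomal protease cathepsin D, fell from 522 ± 25 to 448 ± 24.1 CPM (SD, n = 5 each; log2 fold change −0.22, SE 0.0481, adjusted p = 0.0281 by edgeR). Cma1, which encodes a protease of mast cell granules, rose from 1.5 ± 0.264 to 2.36 ± 0.704 CPM (log2 fold change 0.66, SE 0.206, adjusted p = 0.0954 by edgeR). Cma1 was called under 11 of 19 alternatives, and with the atrium marker score as a covariate its log2 fold change was 0.30 (adjusted p = 0.689 by edgeR), while Ctsd was called under 18 of 19. The mast cell markers Cpa3, Mcpt4, Kit and Fcer1a summed to between 8.19 and 13.9 CPM in training and between 8.12 and 10.1 CPM in sedentary hearts, and Mcpt4 was called as well (log2 fold change 0.65, adjusted p = 0.0696 by edgeR); their part in Cma1 was not tested. Anpep, an aminopeptidase that shortens angiotensin peptides, was at 18.3 and 15.9 CPM (adjusted p = 0.174 by edgeR). The peptidases Lnpep, Enpep, Mme, Thop1, Prcp, Prep and Ctsa and the prorenin receptor gene Atp6ap2 had log2 fold changes between −0.11 and 0.10, and none was called. Mas1 (0.607 and 0.567 CPM) and the bradykinin receptor gene Bdkrb2 (0.479 and 0.437 CPM) were near the lower limit of testing. Renin itself was hardly present, with 79 counts of Ren1 over all 10 hearts, and Agtr2 had 8. Agtr1b and Mrgprd had no count in any heart, and Ctsg and Bdkrb1 were too low to be tested.

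Of 4 tested corticosteroid genes 2 were called, Nr3c1 higher and Hsd11b1 lower, against 7.01% of all tested genes called in either direction. Nr3c1, which encodes the glucocorticoid receptor, was at 85.7, 95.5, 85.8, 93.5 and 90.9 CPM in the training hearts and at 77.1, 73.5, 78.5, 79.2 and 76.4 CPM in the sedentary hearts. The groups did not overlap, which held for 5.06% of all tested genes. Nr3c1 rose by 0.23 on the log2 scale (SE 0.0419, adjusted p = 0.0158 by edgeR). Hsd11b1, whose enzyme regenerates active corticosterone within cells, was at 9.99, 10.8, 12.4, 12.6 and 11.8 CPM in training and at 14.2, 13.6, 15.3, 13.1 and 12.9 CPM in sedentary hearts. It fell by 0.26 (SE 0.0739, adjusted p = 0.0715 by edgeR), also without overlap, and was called under 12 of 19 alternatives, while Nr3c1 was called under 18 of 19. H6pd, which supplies the cofactor of that enzyme, was at 62.6 and 62.3 CPM (adjusted p = 0.949 by edgeR), and Star at 1.65 and 1.81 CPM (adjusted p = 0.737 by edgeR). Hsd11b2, which protects the mineralocorticoid receptor from glucocorticoids in kidney, had only 47 counts over all hearts, and the steroid synthesis genes Cyp11b1, Cyp11b2 and Cyp11a1 had 0, 1 and 70. In TPM, transcripts of the glucocorticoid receptor were 4.65 ± 0.395 times those of Nr3c2 in training and 4.34 ± 0.287 times in sedentary hearts (SD, n = 5 each), with overlap.

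For the endothelin axis, Edn3 was the sole further gene that could be tested (2.4 and 2.7 CPM, adjusted p = 0.735 by edgeR). Edn2 had 14 and Ece2 35 counts over all hearts, and Kel had none.

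**Figure D4:**
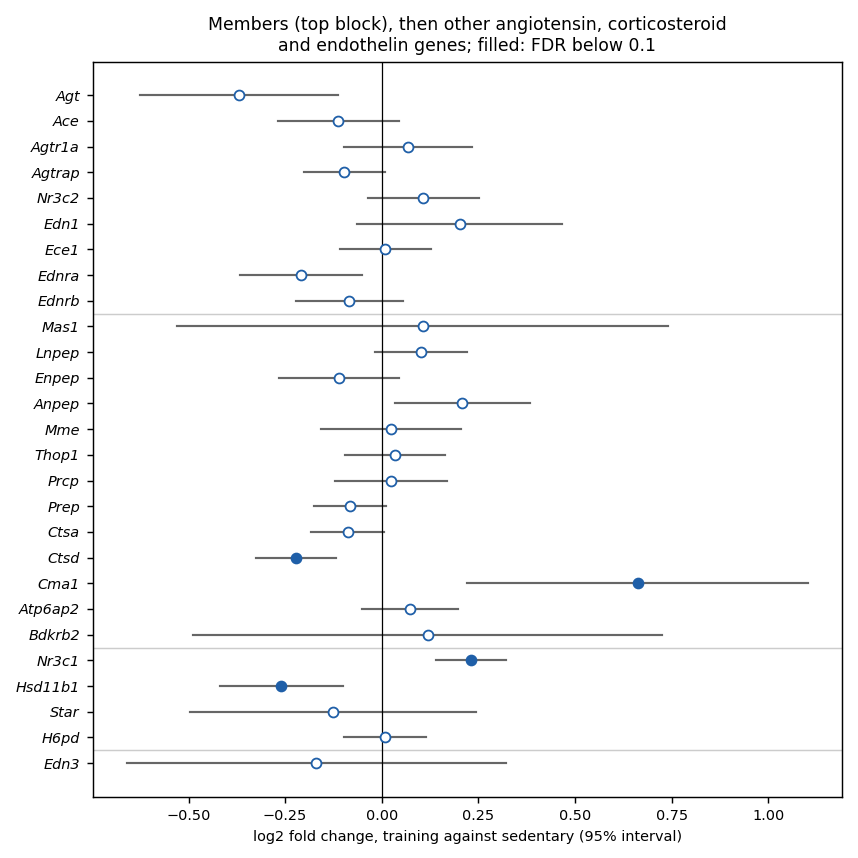
Log2 fold changes of training against sedentary hearts with 95% intervals from edgeR; the top block holds the 9 genes, followed by the other angiotensin, corticosteroid and endothelin genes described, and filled points passed an FDR below 0.1. None of the top 9 is filled, while Ctsd (−0.22), Cma1 (0.66), Nr3c1 (0.23) and Hsd11b1 (−0.26) are.

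Both receptor families signal through Gq, phospholipase C and protein kinase C. Of 22 such genes, with arrestins, receptor kinases and RGS proteins, 1 was called, against 7.01% of all tested genes. An unadjusted edgeR p below 0.05 was found for 3 of the 22, against 20.0% of all tested genes. The called gene was Rgs5, a regulator of G protein signaling typical of pericytes. It fell from 552 ± 33.5 to 486 ± 30.9 CPM (log2 fold change −0.18, SE 0.0545, adjusted p = 0.0814 by edgeR) and was called under 9 of 19 alternatives. Gnaq and Gna11, the α subunits that couple both receptors, had log2 fold changes of 0.016 and −0.0094. Of the 8 mural cell markers, Tagln and Cnn1 were called higher and none lower, while 5 lay above 0 and 3 below. Pdgfrb, Kcnj8, Abcc9 and Notch3 had log2 fold changes of −0.034, −0.086, 0.028 and 0.032, and none of these was called. The sum of the 8 ranged from 780 to 949 CPM in training and from 784 to 924 CPM in sedentary hearts. Abcc9 alone gave a mean of 412 CPM in training and 404 CPM in sedentary hearts. The part of mural cells in Rgs5 was not tested.

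Among 16 tested genes known to respond to angiotensin II or endothelin, 5 were called in opposite directions, against 7.01% of all tested genes. Groups without overlap were found for 2 of the 16, against 5.06% of all tested genes. Myh7, the β-myosin heavy chain, rose from 110 ± 25.4 to 252 ± 74.7 CPM without overlap (log2 fold change 1.2, adjusted p = 0.00871 by edgeR). When counts of both strands were used, its log2 fold change was 0.38 (adjusted p = 0.0312 by edgeR). Ccn2, connective tissue growth factor, rose from 243 ± 38.4 to 384 ± 56.0 CPM, also without overlap (log2 fold change 0.66, adjusted p = 0.0116 by edgeR). The study of these hearts had already named both genes, so that their choice here was not independent of these data. It reported Myh7 as upregulated, the same direction as here. Its discussion listed Ccn2 among downregulated genes, the opposite of the direction here, and the cause of that difference was not tested. Of the 6 fibroblast markers, a cell type that makes Ccn2, Pdgfra and Lum were called higher and none lower, with sums from 1186 to 1467 CPM in training and from 1030 to 1296 CPM in sedentary hearts, and their part in Ccn2 was not tested. Spp1, which encodes osteopontin, rose from 1.04 ± 0.138 to 1.96 ± 0.885 CPM (log2 fold change 0.91, adjusted p = 0.0673 by edgeR) and was called under 13 of 19 alternatives. In the other direction, 2 were lower, of which Acta1, the skeletal α-actin of the fetal gene program, fell from 556 ± 86.3 to 309.7 ± 167 CPM (log2 fold change −0.84, adjusted p = 0.0935 by edgeR) and was called under 6 of 19. Rcan1, a target of calcineurin, had −0.40 (adjusted p = 0.118 by edgeR), and the natriuretic peptide genes Nppa and Nppb had 0.46 and −0.02 (adjusted p = 0.248 and 0.949 by edgeR), Nppa being an atrium marker as well.

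Of the 10 tested genes known to respond to the mineralocorticoid receptor, 3 were called, all lower, against 4.26% of all tested genes called lower. Of these 3, 2 are described. Lcn2, which encodes lipocalin, fell from 7.09 ± 1.79 to 3.62 ± 0.864 CPM (log2 fold change −0.97, SE 0.186, adjusted p = 0.0194 by edgeR) and was called under 19 of 19 alternatives. Fkbp5, a chaperone of steroid receptors that the glucocorticoid receptor also induces, fell by 0.50 on the log2 scale (SE 0.151, adjusted p = 0.0890 by edgeR) and was called under 6 of 19. Sgk1, a kinase that both steroid receptors induce, had a log2 fold change of −0.51 (adjusted p = 0.144 by edgeR). Of the 10, 8 lay below 0 and the median was −0.19, beside 0.00026 for all tested genes. Among the 8, Per1, Tsc22d3 and Zbtb16 were not called (adjusted p = 0.762, 0.594 and 0.405 by edgeR). The 2 above 0 were Nedd4l and Scnn1a, with log2 fold changes of 0.096 and 0.13 (adjusted p = 0.291 and 0.672 by edgeR). Orm1, too low to be tested, had 85 counts in training and 26 in sedentary hearts.

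Likeness was taken as the Pearson correlation of log2 CPM deviations from the group mean over the 10 hearts, which share library depth and tissue make-up, and is given without a test. The genes named were picked as the most alike among all tested genes, so a high r comes in part from that choice. Nearest to Agt was Itgb7 (r = 0.94, at a mean of only 0.707 CPM), followed by Maoa and Peg3. Ace varied most like Cald1 (r = 0.98), Uap1l1 and Gm13889. For the receptors these were Ces1e, Khdrbs3 and Plekha6 (Agtr1a), 6330562C20Rik, Vwc2 and Lrg1 (Ednra), Thbd, Sprtn and Nup98 (Ednrb), and Nup98, Hdac4 and Smcr8 (Nr3c2). For the others they were Arhgap22, Klc4 and Ilkap (Agtrap), Mad2l2 and Gm13090 (Edn1), and Mrc1, Slc35b4 and Pik3cg (Ece1). Among the 9 themselves, Nr3c2 and Ednrb were the most alike (r = 0.87) and Edn1 and Ednrb the least (r = −0.74), whereas Ednra and Ednrb had r = 0.34.

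**Figure D5:**
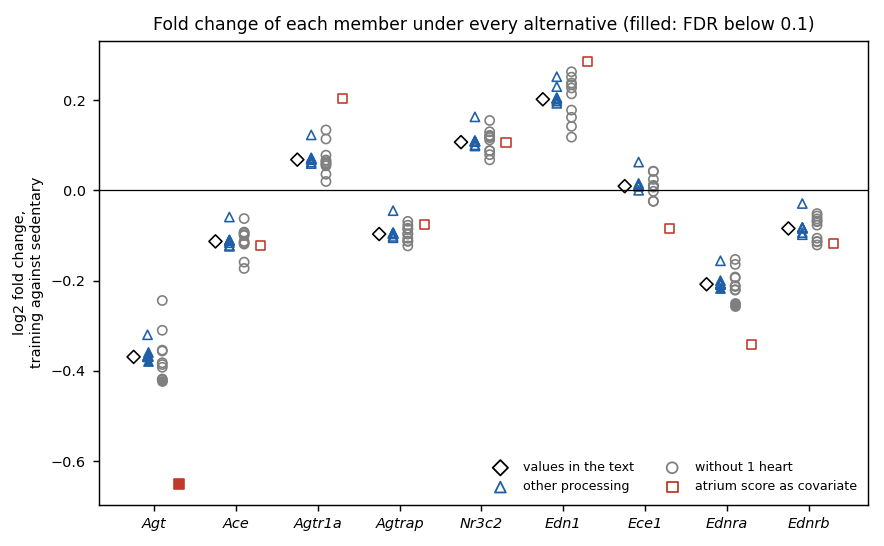
Log2 fold change of each of the 9 genes as given in the text (diamonds), under other processing (triangles), without 1 heart (circles) and with the atrium marker score as a covariate (squares); filled symbols passed an FDR below 0.1. Filled symbols occur for Agt (−0.65 to −0.36) and Ednra, and the points of Ece1 lie on both sides of 0.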

How the data were processed

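RNA of whole hearts was sequenced from directional NEBNext libraries, 1 per heart. The authors aligned the reads to GRCm39 with STAR 2.7.10a and deposited, for each strand, the unnormalized and unfiltered counts of reads that mapped to 1 place. Expected counts deposited by the authors came from RSEM 1.3.3, in which a read that matches several genes is divided among them; the strand setting of RSEM is not given in the sources used here. TPM and FPKM as deposited by the authors came from the same RSEM run, and FPKM were not used here. Builds and versions are from the submitters' processing notes.

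Reverse-strand counts were used, which held between 94.9% and 95.6% of the counts of each heart on either strand. Summary lines without a gene entered neither library sizes nor fits; of the reads in each table, 17.9% to 19.2% were multimapping and 4.15% to 4.89% fell outside genes. GENCODE M39 gave symbols and positions for 56017 of 56748 identifiers. Pairs of libraries within a group differed by more than counting noise (chi-square over its degrees of freedom, 6.07 to 27.9), so errors are between hearts.

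In R 4.3.3, edgeR 4.0.16 compared both groups (filterByExpr, TMM, quasi-likelihood F test, adjustment over all tested genes by the method of Benjamini and Hochberg, called at an FDR below 0.1). SE and 95% intervals come from that fit; percent changes are the back-transformed log2 fold changes. The steps were tested on simulated data. The 9 genes and all lists were chosen with earlier results of these data known. All 9 were named with every heart's value, and of the other lists each called gene, all receptors, ligands and peptidases, and the 3 most alike genes of each of the 9; a few further response and coupling genes were named after their values were seen. For 4 genes chosen in this way no values are reported. Alternatives were DESeq2 1.42.0, DESeq2 size factors, no filter or a minimum of 10 counts per library, scaling by totals only, RSEM counts, both strands, mouse number as a block, an atrium marker score as covariate, each heart left out, and an FDR below 0.05.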

Additional observations from a re-analysis of the deposited data

Results flagged for a closer look

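Of 44 groups of 5 hearts that were checked for a sample far from the others, 3 stood out; chance alone flags about 1 in 20. Lcn2 was at 5.14 CPM in training heart 3, against 3.02 to 3.41 CPM in the other training hearts. Myh7 was at 383 CPM in training heart 2, against 195 to 228 CPM in the other 4. Spp1 was at 1.28 CPM in sedentary heart 3, against 0.919 to 1.02 CPM in the others. Each of these hearts lay above the rest of its group, and none of the 9 genes had such a heart.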

How the results depend on the processing

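Of 171 log2 fold changes of the 9 genes under 19 alternatives each, 159 kept sign and side of the threshold, 8 passed it and 4 changed sign. All 4 belonged to Ece1, at −0.085 with the atrium score as covariate, −0.0243 without training heart 3, −0.0238 without sedentary heart 2 and −0.00205 without sedentary heart 5; over the fits without 1 heart it ranged from −0.0243 to 0.0426. Of 247 values of the called pathway genes, 163 stayed past the threshold and 84 did not, all with the same sign.

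The number of the 9 called was 1 with DESeq2, among 1407 genes called. It was 2 without the filter on low counts, where 1065 of 30041 genes were called. With the atrium score it was 1, where 94 of 15454 genes were called. Without 1 heart it was between 0 and 2. Ednra was called without sedentary heart 2, among 611 of 15610 genes. Agt and Ednra were called without sedentary heart 5, among 761 of 15581 genes. With the atrium score the genes called fell to 94 of all tested and to 2 of the other pathway genes; an FDR below 0.05 left 505 and 5. Without 1 heart these counts were 512 to 1490 and 5 to 14. The lowest were without training heart 4 or sedentary heart 3 (512 each) and, for pathway genes, without sedentary heart 2 (5), followed by training heart 1 (6), training hearts 3 and 4 and sedentary hearts 3 and 5 (7 each) and sedentary heart 4 (8). All tested genes also dropped to 540 without training heart 3, 611 without sedentary heart 2 and 671 without sedentary heart 4. Library totals alone gave 1029 higher and 339 lower genes and moved the median of all genes to 0.053; they called none of the 9 and changed no sign among them. The cause was not tested, except that fits without 1 heart have fewer samples.

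The mouse numbers were not treated as pairs, since residuals of hearts with the same number correlated between −0.097 and 0.159 and only 2 of 5 were above 0.1. With the number as a replicate block, 1137 genes and 1 of the 9 were called (Agt, log2 fold change −0.36, adjusted p = 0.0832 by edgeR).

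Levels computed from STAR counts over effective length were 58.5 for Ece1, 38.8 for Ace, 26.2 for Ednra, 25.9 for Agtr1a, 19.9 for Agtrap, 13.0 for Ednrb, 9.79 for Agt, 5.51 for Nr3c2 and 3.99 for Edn1 on the TPM scale, in the same order; the cause of the higher values was not tested. Genes such as Ren1 and Agtr2 had too few counts to be tested; absent expression and limited depth cannot be told apart for them.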
